A study of Mus musculus with 12 samples.

Results

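RNA levels of Ly6c-high cells taken from mouse hearts 3 days after a freezing injury were set against those of Ly6c-low cells from uninjured hearts, gene by gene. Of the 14460 genes in the deposited table, 12879 were tested, those whose signal averaged 1 or more across all 12 libraries of the study. Signal is the authors' normalised read count on a linear scale, without correction for gene length, so levels are compared between libraries and not between genes. The comparison rests on 6 of the 12 libraries, 3 in each group, which the labels call independent biological replicates. How many mice went into a library is not given in the sources used here. All mice were Cx3cr1GFP/+, aged 2 to 3 months, with GFP in place of 1 copy of the chemokine receptor gene Cx3cr1, so the cells of both groups carried a single working copy of it. GFP-positive cells were sorted from the heart. The day 0 group came from hearts with no surgery and the gate Ly6clow/CX3CR1high, and the day 3 group from cryoinjured hearts and the gate Ly6chigh/CX3CR1low. Gate and time changed together and cannot be told apart in any value below. In bulk samples of this kind, fewer cells of a type and less RNA per cell cannot be told apart either.

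As background, Ly6C-high monocytes leave the bone marrow and spleen, enter injured heart muscle through the receptor CCR2 within days and there respond to dying tissue. The uninjured heart holds resident macrophages, which take up debris, proteins and lipids, and many of them were seeded before birth. Interferon, interleukin 1, oxygen shortage and the uptake of dead cells are among the signals known to change gene expression in monocytes as they enter tissue.

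The 6 libraries held 6658825 to 10334937 reads each, and 3 reads, the most that a count of 0 allows (counting error only), were worth a signal of 0.287 to 0.543. Across genes, libraries correlated at r = 0.957 to 0.976 within day 0, at 0.975 to 0.986 within day 3 and at 0.845 to 0.866 between the groups (genes are not independent replicates). The labels name no sequencing batches. The first day 0 library stood apart from the other day 0 libraries. Mitochondrially encoded genes took 21.3% of its signal, against 39.2% and 39.0% in its group, and 19.6% to 23.2% at day 3. As a check of the gate, Cx3cr1 had a signal of 156, 157 and 145 at day 0 and 43.97, 39.1 and 33.8 at day 3, and Ly6c2, which encodes the Ly6C antigen, 1.32, 20.7 and 20.1 at day 0 and 619.9, 933 and 1004 at day 3. The related gene Ly6c1 rose less, by 1.855 on the log2 scale in the fit described below. Without the first day 0 library it rose by 0.782 and did not pass, and its call also ended in other settings, DESeq2 among them. Macrophage genes were present in both groups: Emr1, which encodes F4/80, had 705, 621 and 588 at day 0 and 279, 142 and 183 at day 3, and Csf1r, the receptor of macrophage growth factor, 1849, 1491 and 1455 at day 0 and 495, 613 and 571 at day 3, so both were lower at day 3 and far above the level of 3 reads.

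By limma with Benjamini-Hochberg adjustment, 5698 of 12879 genes passed an adjusted p of 0.05 (44.2%), of which 2852 were higher at day 3 (22.1%) and 2846 lower (22.1%). In 7135 genes (55.4%) the 3 day 3 libraries did not overlap with the 3 day 0 libraries. The library total was also taken without mitochondrial genes, with Gm26924 and Lars2 left out of that total as well. With this total, called below the total without mitochondrial genes, the split was 1873 higher and 4180 lower. The log2 fold changes of tested genes shifted by a median of -0.27. The changes below are given on the deposited scale, on which the median was -0.02. At least 2-fold changes were 1465 rises and 1640 falls, and at least 8-fold changes 158 rises and 123 falls. At least 32-fold, 31 genes rose and 14 fell. Changes of less than 2-fold made up 2593 of the calls. Fold changes are on the log2(signal + 1) scale, which understates the change of genes with low signal, and are given ± SE with n = 3 against 3.

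The share of genes that passed rose with their signal, from 14.6% below a mean signal of 1 to 46.4% between 10 and 100 and 76.2% above 1000. Rises and falls were spread unevenly over the range of signal. Between 1 and 10, 553 genes rose and 1441 fell, whereas between 100 and 1000, 619 rose and 217 fell. Protein coding genes passed in 45.6% of 11559, long intergenic noncoding RNAs in 34.0% of 268 and antisense RNAs in 31.4% of 277. No source used here states whether counting used strand, so an antisense gene and its partner cannot be told apart by these counts.

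**Figure D1:**
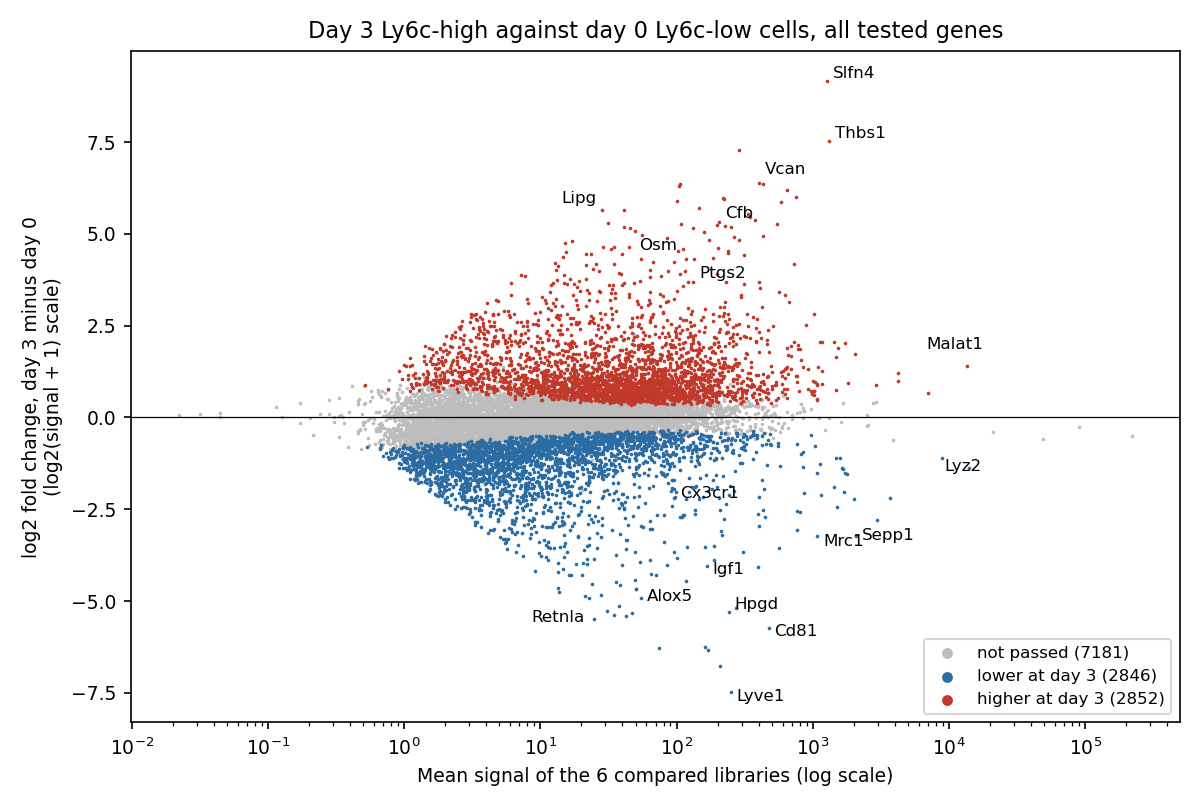
Mean signal of the 6 compared libraries (log scale) against the log2 fold change, day 3 minus day 0, for the 12879 tested genes, coloured by the limma call. Genes higher (2852) and lower (2846) at day 3 are similar in number, with Slfn4 at 9.16 at the top and Lyve1 at -7.48 at the bottom of the named genes.

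Among the most abundant transcripts the groups also differed. Malat1, a nuclear noncoding RNA, had 7113, 6823 and 8138 at day 0 and 24591, 17832 and 16930.0 at day 3 (1.41 ± 0.35). Sepp1, the plasma selenium carrier selenoprotein P, had 3809, 3888 and 3544 at day 0 and 522, 342 and 349 at day 3 (-3.24 ± 0.24). B2m, the light chain of MHC class I, rose from 2799.5 ± 58.5 to 5583 ± 464 (mean ± SD, n = 3), and Lyz2, lysozyme of macrophages, fell from 11922 ± 438 to 5678 ± 1539.7. In none of these 4 genes did the groups overlap, which held for 55.4% of all tested genes. Other abundant myeloid genes lay close together: Lcp1, an actin-bundling protein of leukocytes, had 1717, 1688 and 1629.9 at day 0 and 1644, 1437 and 1515 at day 3 (-0.13 ± 0.15), and Tyrobp, the signalling adaptor DAP12, had 736, 803 and 745 at day 0 and 752, 913 and 869 at day 3 (0.15 ± 0.14). In all, 787 tested genes had a 95% interval of the log2 fold change within -0.5 to 0.5, Tpt1, Laptm5 and Wnk1 among them.

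The 15 largest rises among genes whose mean signal reached 10 and groups that did not overlap included secreted proteins, interferon-induced genes and surface receptors. Slfn4, a Schlafen gene of myeloid cells, had 1.85, 5.66 and 3.62 at day 0 and 2194, 2631 and 2817 at day 3, a rise of 9.16 ± 0.24 (limma, adjusted p = 1.7e-12). Lipg, which encodes endothelial lipase, had 0.132, 0.105 and 0.181 at day 0 and 53.2, 48.99 and 68.4 at day 3 (5.65 ± 0.26). The day 0 values come from 3 reads in all, and the ratio of read rates was 424 (95% exact interval 145 to 2058, counting error only). Ifi205, a member of the interferon-induced p200 genes, had 5.41, 5.98 and 6.34 at day 0 and 301, 513 and 491 at day 3 (5.94 ± 0.21). Oasl1, an antiviral protein of the oligoadenylate synthetase family, rose by 5.88 ± 0.32. Clec4e, the receptor Mincle that senses glycolipids and dead cells, had 2.64, 3.67 and 8.33 at day 0 and 202, 338 and 318 at day 3 (5.69 ± 0.30). Treml2, a receptor of the TREM family, rose from at most 1.63 in any day 0 library to 69.4, 87.01 and 88.7 at day 3 (5.65 ± 0.27). Chi3l3, the secreted lectin Ym1, rose by 5.97 ± 0.66 with all day 0 libraries and by 4.83 without the first of them, in which it was 0.396 against 13.8 and 13.9. Ly6c2 and Vcan were low in the same library and rose by 5.29 and 5.45 without it, against 6.36 and 6.38 with it.

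The 15 largest falls held, beside scavenger receptors, several enzymes of lipid mediator and xenobiotic metabolism. Hpgd, which inactivates prostaglandins, had 481, 508 and 436 at day 0 and 10.8, 11.2 and 10.9 at day 3, a change of -5.31 ± 0.24 (limma, adjusted p = 2.5e-10). Ephx1, microsomal epoxide hydrolase, had 84.7, 82.5 and 83.9 at day 0 and 0.575, 0.944 and 1.59 at day 3 (-5.41 ± 0.19), and the sulfotransferase Sult1a1 72.7, 68.5 and 64.7 at day 0 and 0.862, 0.472 and 0.662 at day 3 (-5.39 ± 0.22). In these 3 genes the groups lay more than an order of magnitude apart in every library. Cbr2, a carbonyl reductase, changed by -5.18 ± 0.26. Retnla, whose product RELM-alpha is secreted, went from 49.3 ± 11.4 to 0.0958, 0.236 and 0, 3 reads in all (-5.48 ± 0.31). The ratio of its read rates was 430.6 (95% exact interval 147 to 2091). Plxna4, a semaphorin receptor, had 77.6, 74.3 and 70.6 at day 0 and 2.59, 0.354 and 1.06 at day 3 (-5.12 ± 0.26), and Mrvi1, a partner of the inositol trisphosphate receptor, changed by -4.91 ± 0.22.

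**Figure D2:**
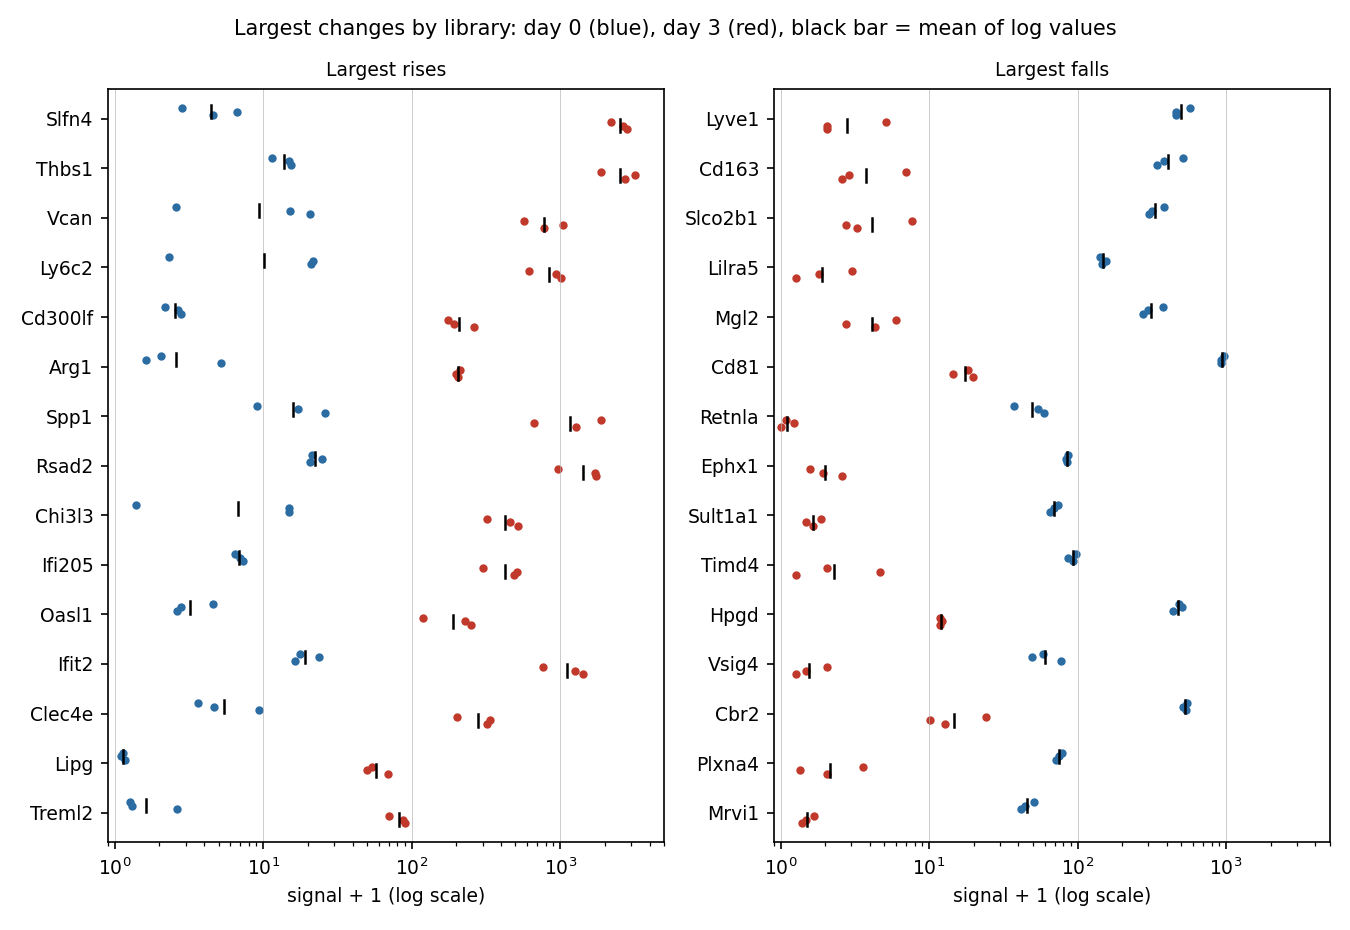
Signal + 1 (log scale) in each of the 3 day 0 (blue) and 3 day 3 (red) libraries for the 15 largest rises and 15 largest falls, with the mean of the log values as a black bar. Genes were chosen so that the groups do not overlap; the first day 0 library lies below the other day 0 libraries in Vcan, Ly6c2 and Chi3l3.

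Among the calls, 11 genes called higher had 0 reads in all 3 day 0 libraries, and 20 called lower had 0 reads in all 3 day 3 libraries. Against a floor of 3 reads per library, F7, coagulation factor VII, was at least 34.3-fold higher at day 3, Lox, which crosslinks collagen, at least 29.0-fold and Rhov, a small GTPase, at least 36.9-fold. In the other direction Cd207, the lectin langerin, was at least 52.6-fold lower at day 3, Hs3st3a1, a heparan sulfate sulfotransferase, at least 32.6-fold and Thrb, a thyroid hormone receptor, at least 13.6-fold. Lox, Rhov, Cd207, Hs3st3a1 and Thrb were picked after their values were seen.

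Gene lists of related function were then read for counts of members that rose or fell. A list in which 22.1% of members rise and 22.1% fall, with a median near -0.02, is like the tested genes as a whole. Counts below are of members tested, followed by the number listed where some were absent or below the limit on signal. Members named that did not pass, and a few others, were chosen after their values were seen. At a stricter limit, a mean signal of at least 5, fewer members are tested, and counts fell by over 1.5-fold for lectins lower (6), eicosanoid genes higher (4), growth factors higher (9) and cardiomyocyte markers lower (6), among others.

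**Figure D3:**
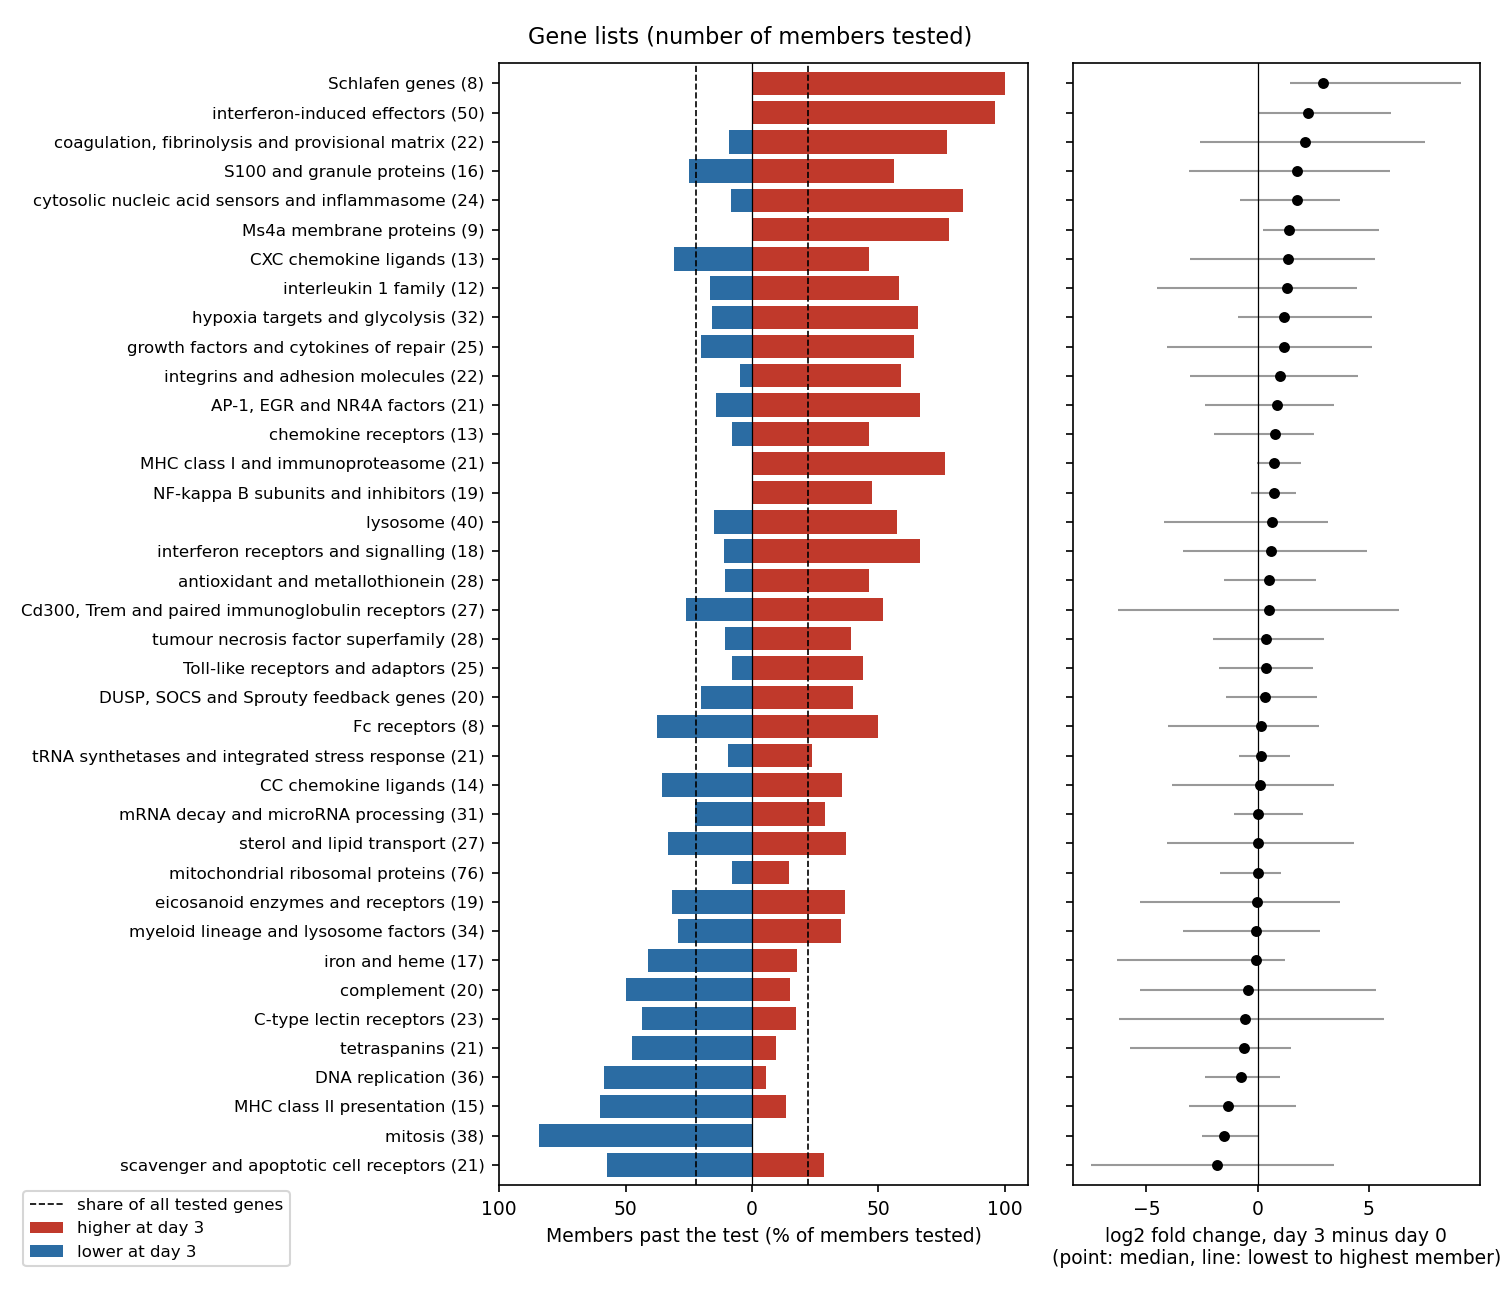
Left, share of tested members of each of 38 gene lists that were higher (red) or lower (blue) at day 3, with dashed lines at the 22.1% of all tested genes, and right, median (point) and lowest to highest member (line) of the log2 fold change. Schlafen genes (8 of 8) and interferon-induced effectors (48 of 50) rose nearly throughout, mitosis genes fell in 32 of 38, and CC chemokine ligand, lipid transport and eicosanoid genes moved in both directions around a median near 0.

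Interferon signalling begins at paired receptors and passes through STAT and IRF factors to effector genes. Of 18 (19 listed) receptor and signalling genes 12 rose and 2 fell, with a median of 0.60. With quantile normalisation 7 rose. Receptor chains moved in opposite directions: Ifnar1 of the type I receptor rose by 0.47 ± 0.13 and Ifngr1 of the type II receptor changed by -0.51 ± 0.13. Irf7, the factor that amplifies type I interferon, had 15.05, 13.8 and 17.02 at day 0 and 324, 569.9 and 630.1 at day 3, a rise of 4.91 ± 0.26 (limma, adjusted p = 1.3e-09). Stat2 had 47.8, 38.2 and 47.3 at day 0 and 316, 455 and 450.2 at day 3 (3.16 ± 0.17). Usp18, which switches the type I receptor off, rose by 3.99 ± 0.23. In Irf7, Stat2 and Usp18 alike the first day 3 library was the lowest of its group and still several-fold above day 0. Irf4, a factor linked to alternative activation, fell, with 78.9, 87.6 and 70.99 at day 0 and 6.32, 9.44 and 5.43 at day 3 (-3.34 ± 0.21), while Irf3 (-0.15 ± 0.20) and Irf8 (0.18 ± 0.18) did not pass.

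Of 50 interferon-induced effectors 48 rose and none fell, with a median of 2.25. Isg15, a ubiquitin-like modifier, had 6.07, 8.597 and 8.51 at day 0 and 161, 349.7 and 423 at day 3 (5.06 ± 0.27). Oas3, a sensor that makes the activator of RNase L, had 27.7, 22.8 and 26.6 at day 0 and 655, 857 and 970.3 at day 3 (4.94 ± 0.16), and Ifit1, which binds foreign RNA ends, 10.7, 13.6 and 20.5 at day 0 and 269.7, 431 and 468 at day 3 (4.62 ± 0.23). The dynamin-like antiviral GTPase Mx1 rose by 4.82 ± 0.23. The remaining 2 members, the GTPase Iigp1 (0.79 ± 0.41) and the membrane protein Ifitm2 (0.05 ± 0.25), did not pass. The summed signal of the list was 3749, 3565 and 3553 at day 0 and 13798, 21144 and 21697 at day 3, so the first day 3 library was below the other day 3 libraries and above every day 0 library. All 8 Schlafen genes tested (9 listed) rose, with a median of 2.93. None overlapped between the groups, against 55.4% of all tested genes without overlap. Slfn1 had 9.11, 9.86 and 13.4 at day 0 and 242, 381 and 389.6 at day 3 (4.83 ± 0.23), and Slfn5 rose by 3.34 ± 0.19. Members of the p200 and Schlafen groups resemble each other in sequence, so reads may be split between neighbours.

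Interferon factors act through the interferon-stimulated response element, searched here in the 250 bases before the RefSeq start sites (GRCm38.p6) as GAAANNGAA on both strands. The stretch was present for 9073 of the 12879 tested genes. The motif lay in the stretch of 720 of these genes (7.94%), of 23 of 105 genes that rose at least 8-fold (21.9%), of 11 of 86 that fell at least 8-fold (12.8%) and of 360 of 4981 genes that were not called (7.23%). Among the interferon-induced effectors 18 of 37 held it (48.6%), and among Schlafen genes 3 of 7. Of all 32851 RefSeq start sites 7.13% had it. The effectors were listed as interferon-induced genes, so their share describes the list and not the change at day 3. Isg15, Oas3 and Ifit1 are counted both in that list and among the genes that rose at least 8-fold. A match describes the letters and is neither a bound site nor a cause, and its absence says only that these letters are not in this stretch. The sequences below show the motif in 6 of the effectors and chemokines that rose, on the gene's strand, with matches in capitals. In Ifit1, Isg15 and Ifit3 3 matches overlap or stand close together, and in Oas3 2 overlap.
Rsad2 (chr12:26456553-26456581, minus strand): tggtccaactTTCATTTTCagaaaacaga
Oas3 (chr5:120777710-120777744, minus strand): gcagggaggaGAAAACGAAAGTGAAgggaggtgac
Ifit1 (chr19:34640770-34640823, plus strand): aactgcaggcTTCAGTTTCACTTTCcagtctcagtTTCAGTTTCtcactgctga
Isg15 (chr4:156200866-156200906, minus strand): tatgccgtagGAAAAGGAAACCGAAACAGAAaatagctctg
Cxcl10 (chr5:92349084-92349112, minus strand): tcacgctttgGAAAGTGAAacttacctca
Ifit3 (chr19:34583364-34583445, plus strand): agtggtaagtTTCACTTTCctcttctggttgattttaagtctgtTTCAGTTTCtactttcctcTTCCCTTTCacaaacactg

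Cytosolic sensors of nucleic acids and inflammasome genes rose in 20 of 24 and fell in 2, with a median of 1.78. Zbp1, a sensor of Z-form nucleic acid, had 29.2, 32.3 and 32.6 at day 0 and 293, 491 and 492 at day 3 (3.68 ± 0.19), and Ifih1, the RNA sensor MDA5, rose by 2.82 ± 0.22. Nlrp3, the scaffold of the best known inflammasome, rose by 0.98 ± 0.17. The members that fell were Nlrc4, a sensor of bacterial proteins (-0.78 ± 0.19), and Mavs, the adaptor downstream of the RNA sensors (-0.66 ± 0.19).

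Chemokines recruit leukocytes, and the ligand families moved in both directions. CC chemokines rose in 5 and fell in 5 of 14 tested (18 listed), with a median of 0.10 that was -0.19 after quantile normalisation. Ccl2, the main ligand of CCR2, had 126, 76.3 and 88.4 at day 0 and 979, 921 and 1173 at day 3 (3.41 ± 0.18; limma, adjusted p = 9.2e-10), and Ccl7, which shares that receptor, 77.1, 42.7 and 45.1 at day 0 and 645, 381 and 589 at day 3 (3.28 ± 0.25). Ccl24, an attractant of eosinophils, had 48.3, 47.9 and 44.6 at day 0 and 2.395, 2.72 and 1.85 at day 3 (-3.86 ± 0.32), and Ccl17, which attracts T cells, 3.96, 5.35 and 5.98 at day 0 and 0.479, 0.118 and 0.529 at day 3 (-2.15 ± 0.30). Each of these 4 ligands was separated between the groups, as were 55.4% of all tested genes. The 5 that rose were Ccl2, Ccl7, Ccl12 (2.29), Ccl8 (2.27) and Ccl4 (1.44), and the 5 that fell were Ccl24, Ccl17, Ccl27a (-1.59), Ccl22 (-1.29) and Ccl6 (-0.46).

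CXC chemokines rose in 6 and fell in 4 of 13, with a median of 1.36 that was 0.58 without the second day 0 library. Cxcl3, a neutrophil attractant, had 2.38, 0.105 and 2.35 at day 0 and 28.6, 28.9 and 27 at day 3 (3.65 ± 0.35). Cxcl11, an interferon-induced ligand of CXCR3, had 0 reads at day 0 and 5.17, 10.6 and 8.34 at day 3, at least 19.2-fold higher. Cxcl2, another neutrophil attractant, had 539, 45.4 and 76.8 at day 0 and 408, 385 and 471 at day 3, so the first day 0 library lay above all 3 day 3 libraries. Its call (1.75 ± 0.58) ended in 7 of the 20 alternatives that gave an adjusted p, among them leaving out day 0 replicate 2 or 3 or day 3 replicate 3, and without the first day 0 library it was 2.81. Pf4, platelet factor 4, also made by resident macrophages, had 767, 823 and 708 at day 0 and 215, 86.7 and 81.1 at day 3 (-2.72 ± 0.28), and Cxcl13, which attracts B cells, had 2.51, 11.5 and 13.04 at day 0 and 0.0958, 0 and 0 at day 3, with 1 read in all at day 3 (-3.05 ± 0.42), or -3.69 without the first day 0 library.

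Chemokine receptors rose in 6 of 13 tested (18 listed), and Cx3cr1, which was part of the gate, was the one called lower (2 were lower after quantile normalisation or with the total taken without mitochondrial genes). Ccr2, the receptor of Ccl2 and Ccl7, had 192, 284 and 329 at day 0 and 1404, 1728 and 1422 at day 3 (2.52 ± 0.23), Ccr1 41.97, 38.3 and 39.5 at day 0 and 109, 139.9 and 139.9 at day 3 (1.66 ± 0.19) and Cxcr4, which holds cells in the marrow, 73.5, 49.2 and 62.8 at day 0 and 151, 236 and 193 at day 3 (1.62 ± 0.18). Integrins and other adhesion molecules rose in 13 of 22 (23 listed). Itga5, the fibronectin receptor chain, had 24.4, 26.6 and 35.3 at day 0 and 107, 147 and 152 at day 3 (2.20 ± 0.25), and Itgb7 rose by 2.12 ± 0.30. Itga9 was the one adhesion gene that fell (2 fell without day 0 replicate 1 or day 3 replicate 1, and 3 after quantile normalisation or with the total taken without mitochondrial genes), with 119, 117 and 107 at day 0 and 17.2, 12.04 and 10.3 at day 3 (-3.05 ± 0.17).

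Receptors that read microbes and damage were split by family. Toll-like receptors and adaptors rose in 11 of 25 and fell in 2, the latter Tlr12 (-1.75) and Ticam2 (-0.56), or 5 after quantile normalisation and 4 with the total taken without mitochondrial genes. Cd180, a Toll-like homologue of the endotoxin receptor, had 157, 139 and 164 at day 0 and 907, 706 and 997 at day 3 (2.48 ± 0.15). Tlr9, a DNA sensor, had 77.2, 72.3 and 77.3 at day 0 and 217, 372 and 398 at day 3 (2.06 ± 0.23), and the shared adaptor Myd88 rose by 1.79 ± 0.18. The endotoxin receptor Tlr4 itself (-0.18 ± 0.20) and the RNA sensor Tlr7 (0.17 ± 0.17) did not pass. C-type lectins fell in 10 and rose in 4 of 23 (25 listed). Mrc1, the mannose receptor of resident macrophages, had 2312, 1852 and 1666 at day 0 and 311, 179 and 149.6 at day 3 (-3.24 ± 0.26), and Clec10a changed by -1.69 ± 0.15. Clec4d, a partner of Clec4e in the receptor complex, had 10.6, 8.18 and 11.4 at day 0 and 105, 121 and 125 at day 3 (3.43 ± 0.17). Clec7a, the beta-glucan receptor Dectin-1, did not pass (0.37 ± 0.26).

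Fc receptors, which bind antibodies, divided within the family: 4 of 8 (10 listed) rose and 3 fell, with a median of 0.17 that was -0.20 after quantile normalisation and -0.12 with the total taken without mitochondrial genes. Fcgr1, the high-affinity activating receptor, had 108, 84.5 and 85.1 at day 0 and 490.3, 676 and 722 at day 3 (2.74 ± 0.17), and the activating receptor Fcgr4 46.7, 51.7 and 54.5 at day 0 and 134, 137 and 173 at day 3 (1.51 ± 0.17). The low-affinity receptor Fcgr3 moved the other way, with 417, 418 and 394 at day 0 and 154, 186 and 183 at day 3 (-1.23 ± 0.14). Fcgr2b, the inhibitory member, had 262, 252 and 249.9 at day 0 and 227, 198 and 199 at day 3 and did not pass (-0.29 ± 0.14). Fcgrt, the neonatal Fc receptor that recycles antibody and albumin (GRCm38 chr7:45092990-45103851), had 173, 163 and 148 at day 0 and 10.3, 9.33 and 7.68 at day 3, a change of -4.01 ± 0.15 (limma, adjusted p = 4.8e-11), and the groups lay more than an order of magnitude apart. Fcrls, a receptor of resident macrophages and microglia, had 387, 329 and 322 at day 0 and 52.3, 13.3 and 15.9 at day 3 (-3.88 ± 0.34), or -4.47 without the first day 3 library.

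Among Cd300, Trem and paired immunoglobulin receptors 14 of 27 (29 listed) rose and 7 fell. Trem1, an amplifier of inflammation, had 0.528, 0.629 and 2.17 at day 0 and 23.1, 32.9 and 29.4 at day 3 (3.87 ± 0.32), and Sirpb1c, an activating receptor with close paralogs, 9.11, 20.97 and 23 at day 0 and 322, 399.5 and 338 at day 3 (4.34 ± 0.25). The sialic acid receptors Siglece, with 98.6, 102 and 103 at day 0 and 9.77, 13.3 and 12.97 at day 3 (-2.98 ± 0.23), and Cd33, with 207, 198 and 174 at day 0 and 28.9, 27.6 and 31.8 at day 3 (-2.67 ± 0.14), fell. The lipid receptor Trem2 had 39.7, 44.5 and 39.3 at day 0 and 85.6, 28.9 and 53.1 at day 3 and did not pass (0.30 ± 0.28). Ms4a membrane proteins rose in 7 of 9 tested (14 listed) and none fell, with Ms4a4c at 12.8, 14.8 and 14.7 at day 0 and 504, 723 and 797 at day 3 (5.46 ± 0.20). Tetraspanins, which organise membrane complexes, fell in 10 of 21 (26 listed) and rose in 2, the leukocyte tetraspanin Cd53 (0.97 ± 0.19) and Tspan18 (1.51 ± 0.25).

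In the interleukin 1 family, 7 of 12 (13 listed) genes rose and 2 fell, with ligands, inhibitors and a decoy among the former. Il1b had 220.2, 71.4 and 94.7 at day 0 and 487, 771 and 648 at day 3 (2.44 ± 0.31). Il18bp, which neutralises interleukin 18, had 5.54, 5.03 and 8.51 at day 0 and 84.5, 76.5 and 114 at day 3 (3.66 ± 0.21), and Il1r2, the decoy receptor, 4.62, 3.88 and 2.54 at day 0 and 14.4, 20.5 and 22.6 at day 3 (2.11 ± 0.38). Il1rl1, the receptor of interleukin 33 (GRCm38 chr1:40429570-40465415), had 51.2, 47.9 and 41.8 at day 0 and 1.34, 1.06 and 0.794 at day 3 (-4.54 ± 0.35), so the groups lay more than an order of magnitude apart. Il1rl2 was the other member that fell (-1.52 ± 0.34). Tumour necrosis factor ligands and receptors rose in 11 and fell in 3 of 28 (34 listed). Tnf itself had 70.4, 28.9 and 41.5 at day 0 and 31.5, 29.2 and 37.3 at day 3 and did not pass (-0.42 ± 0.25), while the death ligand Tnfsf10 (TRAIL) had 3.56, 7.97 and 9.42 at day 0 and 45.9, 65.4 and 65.8 at day 3 (2.98 ± 0.31).

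Growth factors and repair cytokines rose in 16 and fell in 5 of 25 tested (33 listed), with a median of 1.17. Osm, oncostatin M, had 19.01, 6.71 and 7.61 at day 0 and 162, 277 and 235 at day 3 (4.32 ± 0.32). Il10 had 5.41, 2.52 and 3.08 at day 0 and 20.2, 15.7 and 20.6 at day 3 (2.13 ± 0.31), and Csf1, the macrophage growth factor, 6.73, 6.5 and 4.89 at day 0 and 24.5, 25.03 and 29.5 at day 3 (1.96 ± 0.24). Igf1, which supports muscle and macrophage survival, had 309, 324 and 294 at day 0 and 47.8, 8.97 and 12.2 at day 3 (-4.06 ± 0.39), or -4.76 without the first day 3 library, which was the highest of its group. Bmp2 had 26.3, 19.3 and 13.8 at day 0 and 0.862, 0.118 and 0.529 at day 3 (-3.77 ± 0.26), and the platelet-derived growth factor chains Pdgfb (-2.55 ± 0.25) and Pdgfc (-1.88 ± 0.28) fell. Among the vascular growth factors Vegfa rose by 5.15 ± 0.35, while Vegfb, with 7.92, 8.597 and 5.795 at day 0 and 0.862, 1.299 and 0.662 at day 3, changed by -2.12 ± 0.25.

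Eicosanoids are lipid mediators made from arachidonic acid, either by cyclooxygenases to prostaglandins or by 5-lipoxygenase to leukotrienes. Of 19 genes tested (24 listed) 7 rose and 6 fell, with a median of -0.02. The cyclooxygenases went in opposite directions. Ptgs2, the inducible enzyme (GRCm38 chr1:150100031-150108227), had 24.8, 11.1 and 20.3 at day 0 and 199, 297 and 245 at day 3, a rise of 3.70 ± 0.24 (limma, adjusted p = 1.3e-08). Ptgs1, the constitutive enzyme, had 100.4, 87.6 and 89.8 at day 0 and 6.32, 5.79 and 6.88 at day 3, a change of -3.68 ± 0.14 (limma, adjusted p = 5.3e-11). Of the leukotriene enzymes, Alox5 (GRCm38 chr6:116410077-116461178) had 115, 110.4 and 94.4 at day 0 and 3.64, 1.77 and 2.52 at day 3 (-4.91 ± 0.20) and Ltc4s 11.9, 14.05 and 11.8 at day 0 and 0.287, 0.708 and 0.529 at day 3 (-3.17 ± 0.22), whereas the 5-lipoxygenase activating protein Alox5ap had 326, 299 and 299 at day 0 and 314, 414 and 432 at day 3 and did not pass (0.31 ± 0.16). The receptors Ltb4r1 for leukotriene B4 (2.82 ± 0.29), Ptgir for prostacyclin (2.09 ± 0.28) and Ptger2 for prostaglandin E2 (1.24 ± 0.32) rose. Hpgd, described above as the gene that inactivates prostaglandins, fell.

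Complement genes fell in 10 and rose in 3 of 20, with a median of -0.44. The classical pathway starts with C1q, and its 3 chains fell: C1qa had 783, 678 and 683 at day 0 and 135, 65.3 and 86.3 at day 3 (-2.95 ± 0.23), and C1qb and C1qc changed by -2.12 ± 0.23 and -2.54 ± 0.23. The alternative pathway moved the other way at its activating step. Cfb, factor B (GRCm38 chr17:34856374-34862518), had 9.64, 9.96 and 7.24 at day 0 and 347, 383 and 471 at day 3, a rise of 5.33 ± 0.21 (limma, adjusted p = 6.8e-11), and C3 had 19.5, 31.98 and 36.4 at day 0 and 140.3, 294 and 254 at day 3 (2.90 ± 0.30). C3ar1, a receptor of a C3 fragment, was the other member that rose (0.91 ± 0.17).

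Coagulation, fibrinolysis and provisional matrix genes rose in 17 of 22 tested (29 listed) and fell in 2, with a median of 2.11. F10, coagulation factor X, had 0.792, 2.83 and 4.35 at day 0 and 40.9, 91.97 and 95.8 at day 3 (4.44 ± 0.39). F7, whose product activates factor X, had 0 reads at day 0 and 15.9, 8.74 and 18.4 at day 3. F5, factor V, the cofactor of factor X, had 0.396, 3.46 and 1.63 at day 0 and 16.4, 53.8 and 38.4 at day 3 (3.72 ± 0.48). Plaur, the urokinase receptor, had 6.47, 3.56 and 4.89 at day 0 and 43.8, 85.8 and 103 at day 3 (3.66 ± 0.28), and Fgl2, a membrane prothrombinase, 78.8, 87.6 and 72.1 at day 0 and 418, 632 and 693 at day 3 (2.83 ± 0.22). Fn1, fibronectin, had 29.4, 101 and 129.7 at day 0 and 988, 1735 and 1369 at day 3 (4.17 ± 0.44). The members that fell were F13a1, the fibrin crosslinking factor also found in resident macrophages, with 1471, 1420.0 and 1239 at day 0 and 197, 272 and 221 at day 3 (-2.59 ± 0.22), and Tfpi, the inhibitor of the factor VII route (-1.83 ± 0.36). The motif TGANTCA, bound by AP-1 factors, lay in the stretch before the start of 7 of 15 of these genes (46.7%), against 492 of 9073 tested genes (5.42%) and 6.75% of all start sites. Every motif was searched in every list, and this pair is among the few printed. Of genes that rose at least 8-fold 14 of 105 held it (13.3%), and of those that fell at least 8-fold 6 of 86 (6.98%). Tested genes with it rose in 29.9% and fell in 23.2%, and those without it rose in 22.4% and fell in 22.3%.

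**Figure D4:**
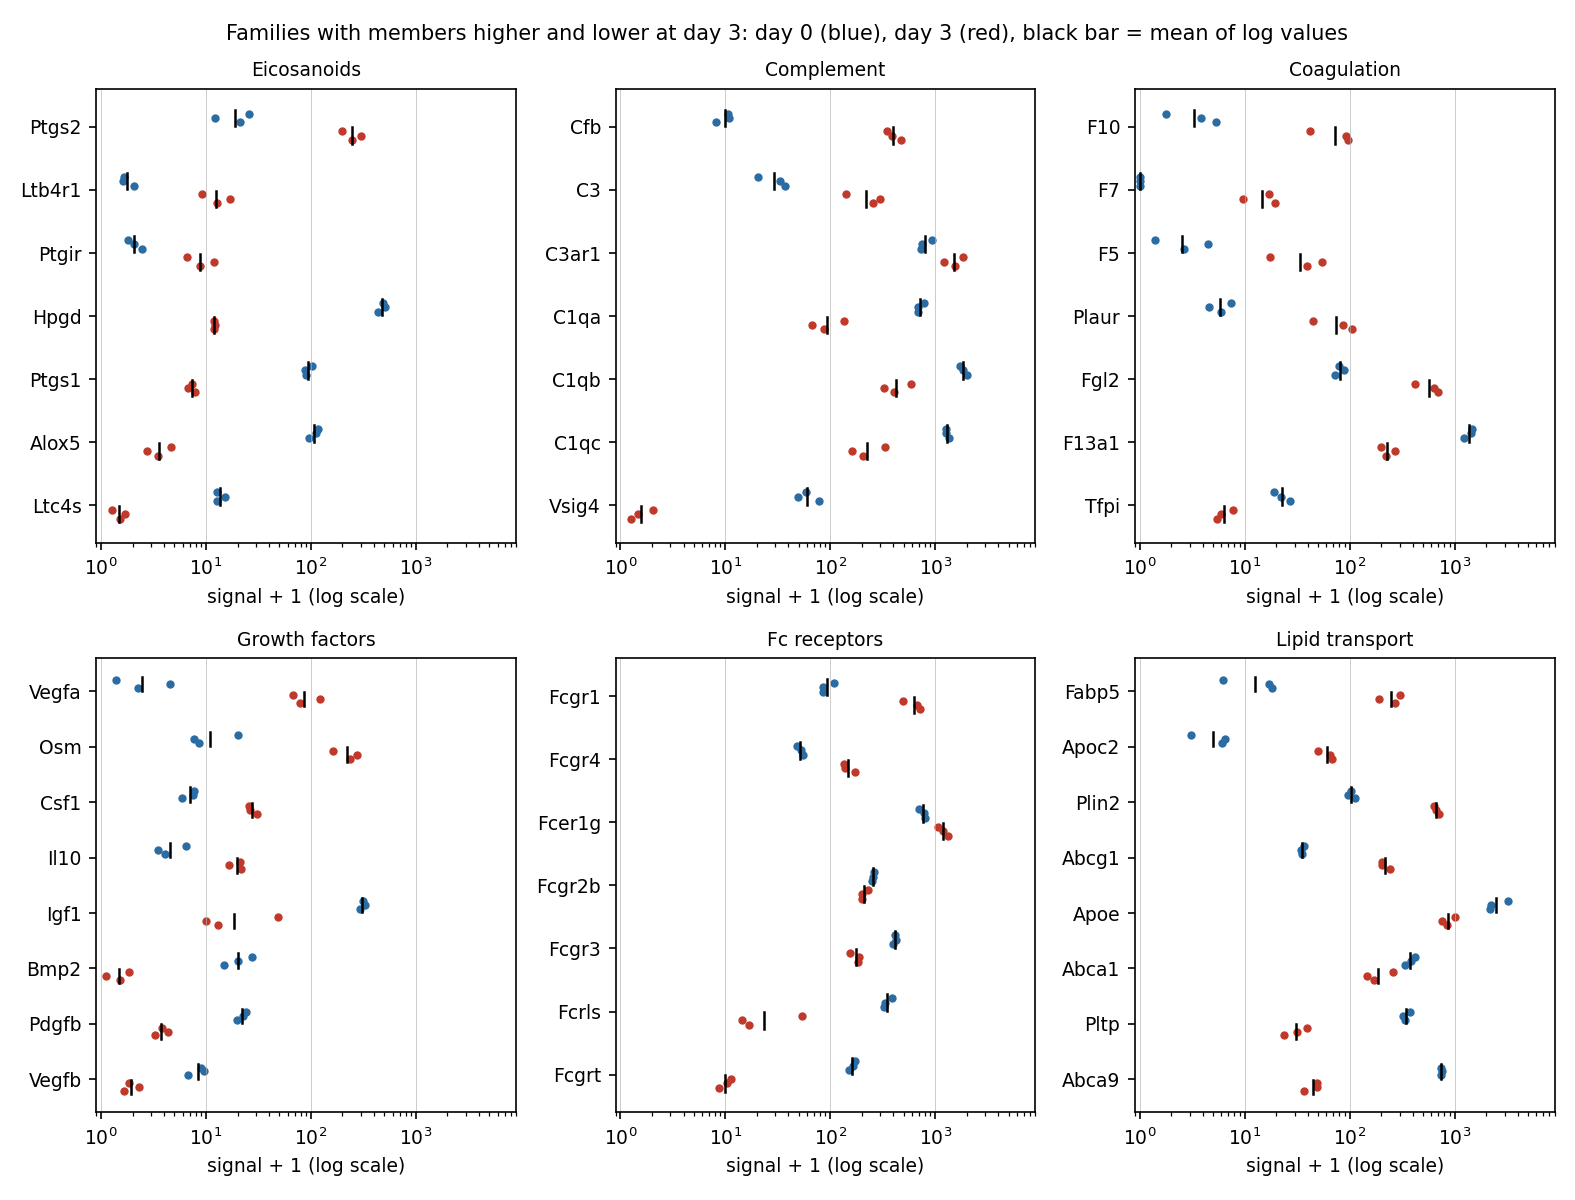
Signal + 1 (log scale) in each day 0 (blue) and day 3 (red) library for members of 6 families, with the mean of the log values as a black bar. Families and members were chosen to show both directions. In each of the 6 families some members rise and others fall, as Ptgs2 and Alox5 among eicosanoid genes, Cfb and C1qa in complement, and Fcgr1 and Fcgrt among Fc receptors, while Fcgr2b changes little.

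Early response transcription factors are induced within minutes when cells are stimulated. Of 21 (23 listed) AP-1, EGR and NR4A genes tested 14 rose and 3 fell, but 9 rose when replicate 2 or 3 of either group was left out. With the total taken without mitochondrial genes, 9 rose and 5 fell. In 20 of the 21 genes the first day 0 library lay above both other day 0 libraries, by a median of 2.48-fold over their mean, whereas 40.5% of all tested genes were highest of the group in that library. Nr4a1 had 105, 25.1 and 19.6 at day 0 and 191, 337 and 264 at day 3 (2.75 ± 0.43), or 3.48 without the first day 0 library. Atf3 had 293, 55.1 and 65.2 at day 0 and 369, 603 and 484 at day 3 (2.21 ± 0.42), or 2.97 without it. Nr4a2, which had 6.995, 1.78 and 3.62 at day 0 and 42.4, 68.4 and 41.3 at day 3, rose by 3.43 ± 0.32. Egr1, with 710.2, 203 and 269 at day 0 and 57.5, 70.7 and 68.4 at day 3, was the largest fall of the group (-2.36 ± 0.31), or -1.82 without the first library. Jun did not pass with it or without it (-0.18 without). The part of the early response genes in the other results was not tested.

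**Figure D5:**
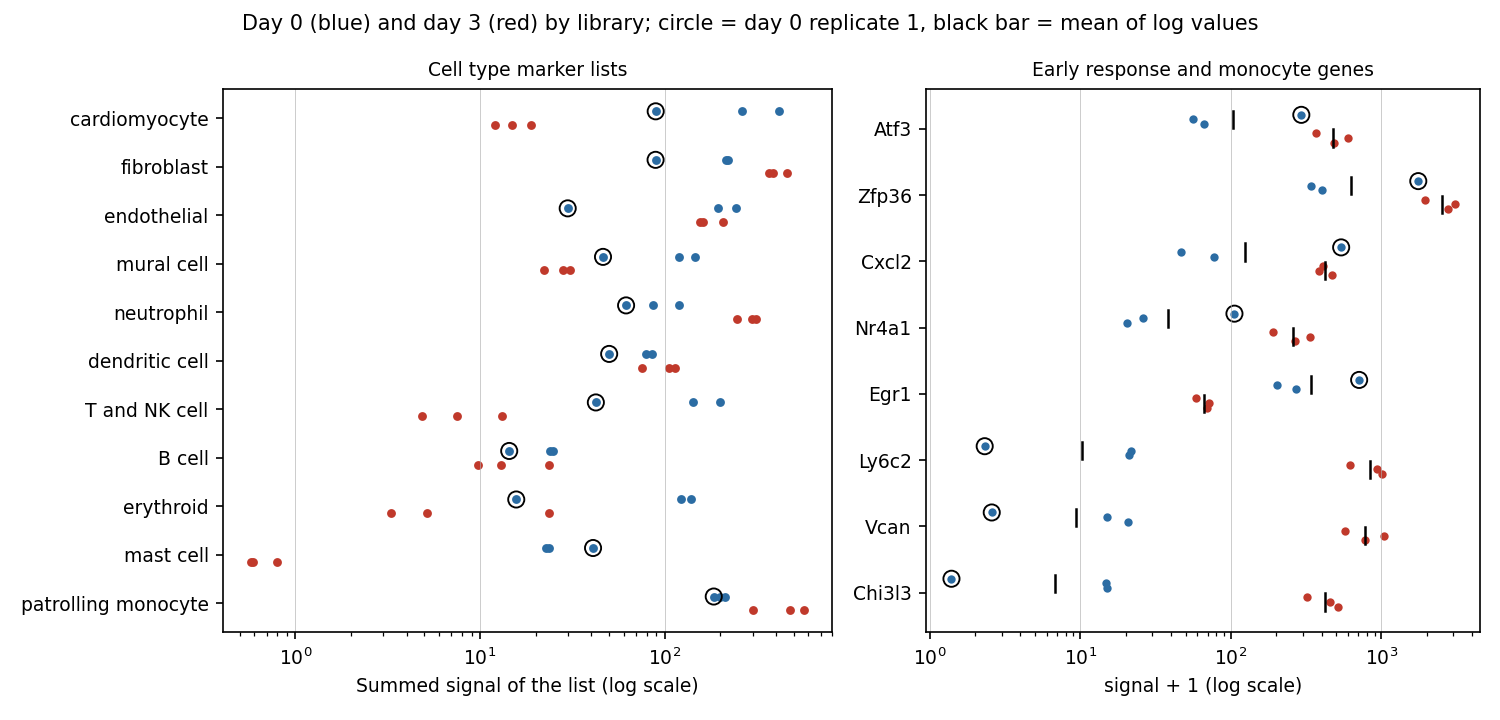
Left, summed signal (log scale) of 11 cell type marker lists in each day 0 (blue) and day 3 (red) library. Right, signal + 1 (log scale) of early response and monocyte genes; circles mark the first day 0 library, which lies near the day 3 libraries in Atf3, Zfp36 and Cxcl2 and farthest from them in Egr1, Ly6c2, Vcan and Chi3l3.

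Other regulators were then read by list. NF-kappa B subunits and inhibitors rose in 9 of 19 and none fell, with 15 rising without the first day 0 library and 1 falling with the total taken without mitochondrial genes. Bcl3, a nuclear cofactor of NF-kappa B, had 12.9, 6.5 and 8.69 at day 0 and 21.7, 40.8 and 36 at day 3 (1.71 ± 0.26). Myeloid lineage and lysosome factors were evenly split, 12 up and 10 down of 34 (36 listed). Bhlhe40 had 12.7, 11.95 and 14.7 at day 0 and 77.6, 113 and 102 at day 3 (2.79 ± 0.17) and Cebpb, a factor of Ly6C-high monocytes and inflammation, 22.8, 12.7 and 16.1 at day 0 and 73.4, 89.3 and 77.4 at day 3 (2.19 ± 0.19). Mef2c had 297, 310.3 and 267 at day 0 and 69.8, 76.4 and 75.8 at day 3 (-1.96 ± 0.22), Klf2 83.8, 41.8 and 45.6 at day 0 and 11.6, 11.8 and 13.9 at day 3 (-2.05 ± 0.25), and the macrophage factor Maf changed by -0.84 ± 0.15. Feedback inhibitors of the DUSP, SOCS and Sprouty families rose in 8 and fell in 4 of 20 (22 listed), with 5 rising without day 0 replicate 2 or day 3 replicate 2 or 3. With the total taken without mitochondrial genes, 5 rose and 7 fell. Socs3, an inhibitor of cytokine receptors, had 34.1, 13.3 and 15.2 at day 0 and 51.2, 89.8 and 74.3 at day 3 (1.82 ± 0.28), and Dusp6, a phosphatase of ERK, 157, 158 and 149.8 at day 0 and 54.4, 62.2 and 53.7 at day 3 (-1.43 ± 0.16). Spi1, which encodes PU.1, had 138, 106 and 127 at day 0 and 117, 193 and 193 at day 3 and did not pass (0.41 ± 0.22).

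Of 31 genes for proteins that control mRNA decay and microRNAs, 9 rose and 7 fell, with a median of 0.02. Of all tested genes 22.1% rose and 22.1% fell, with a median of -0.02. Zfp36, tristetraprolin, which destabilises cytokine mRNAs, had 1756, 342 and 402 at day 0 and 1937, 3059 and 2759.9 at day 3 (2.03 ± 0.43), or 2.77 without the first day 0 library. Zc3h12a, the ribonuclease Regnase-1, had 8.71, 5.24 and 3.62 at day 0 and 15.3, 17.2 and 17.5 at day 3 (1.43 ± 0.24), and the RNA editing enzyme Adar 38.01, 33.1 and 30.6 at day 0 and 72.1, 103 and 95.97 at day 3 (1.38 ± 0.19). Argonautes, the proteins that hold microRNAs, diverged: Ago2, which can cut its targets, rose by 0.64 ± 0.15, and Ago1 (-0.78 ± 0.15) and Ago4 (-1.08 ± 0.26) fell. The microRNA processing enzymes Dicer1, with 41.7, 45.4 and 44.7 at day 0 and 36.1, 42.3 and 38.7 at day 3 (-0.17 ± 0.14), and Drosha (0.01 ± 0.21) did not pass. Without day 0 replicate 3, or day 3 replicate 2 or 3, 4 genes fell in place of 7.

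Scavenger and apoptotic cell receptors fell in 12 and rose in 6 of 21 (24 listed), with a median of -1.82. Gas6, the bridging ligand of the TAM receptors, had 207, 185 and 171 at day 0 and 23.1, 7.91 and 9.795 at day 3 (-3.83 ± 0.26), and Folr2, the folate receptor of resident macrophages, 200.5, 175 and 154 at day 0 and 25.3, 6.97 and 12.05 at day 3 (-3.66 ± 0.33). The TAM receptors themselves, Mertk (-0.36 ± 0.22) and Axl (-0.35 ± 0.16), did not pass. In the opposite direction, Msr1, the class A scavenger receptor, had 215, 212 and 211 at day 0 and 709, 741 and 758 at day 3 (1.79 ± 0.12), and Olr1, a receptor of oxidised lipoprotein, 1.85, 4.09 and 1.81 at day 0 and 33.1, 39.2 and 36.3 at day 3 (3.43 ± 0.38).

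Genes of sterol and lipid transport rose in 10 and fell in 9 of 27, with a median of 0.01. Fabp5, a fatty acid binding protein, had 5.28, 15.9 and 17.2 at day 0 and 299, 191 and 272 at day 3 (4.33 ± 0.30), and Plin2, the coat of lipid droplets, 103, 94.9 and 111 at day 0 and 634, 659.8 and 717 at day 3 (2.69 ± 0.13). The cholesterol exporters diverged: Abcg1 had 36.03, 33.1 and 34.2 at day 0 and 204, 202 and 239 at day 3 (2.60 ± 0.14) and Abca1 419, 379 and 337 at day 0 and 257, 145 and 171 at day 3 (-1.02 ± 0.18). Abca9, a transporter of the same superfamily, had 737, 755 and 743 at day 0 and 48.4, 47.6 and 35.7 at day 3 (-4.07 ± 0.20). Pltp, a phospholipid transfer protein, had 378, 325 and 337 at day 0 and 38.5, 30.3 and 22.6 at day 3 (-3.49 ± 0.20), Cd36, the fatty acid receptor, 326, 492 and 428 at day 0 and 189, 55.8 and 96.5 at day 3 (-2.01 ± 0.31), and Apoe 3232, 2226 and 2166 at day 0 and 1011, 756 and 854 at day 3 (-1.52 ± 0.20).

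Lysosome genes rose in 23 and fell in 6 of 40, with a median of 0.64, and 10 fell after quantile normalisation or with the total taken without mitochondrial genes. Gla, alpha-galactosidase, had 17.2, 14.4 and 17.9 at day 0 and 142, 159.6 and 164 at day 3 (3.16 ± 0.16), and the protease cathepsin L, Ctsl, 139, 99.6 and 101 at day 0 and 728, 371 and 496 at day 3 (2.18 ± 0.21). Ctsf, cathepsin F, went the other way, with 34.4, 25.2 and 20.1 at day 0 and 0.287, 1.06 and 0.132 at day 3 (-4.22 ± 0.30). Iron and heme genes rose in 3 (5 after quantile normalisation) and fell in 7 of 17 (19 listed). Storage and export of iron diverged: Fth1, ferritin heavy chain, had 3263, 2061 and 2308 at day 0 and 5228, 5817 and 6474 at day 3 (1.22 ± 0.20), while the exporter ferroportin, Slc40a1, had 71.1, 81.04 and 57.95 at day 0 and 9.101, 4.01 and 8.47 at day 3 (-3.17 ± 0.27) and its partner ferroxidase ceruloplasmin, Cp, 78.8, 78.1 and 77.5 at day 0 and 11.1, 5.55 and 4.898 at day 3 (-3.35 ± 0.26). The other rises were Alas1, the first enzyme of heme synthesis (1.25 ± 0.19), and Steap3, a ferrireductase (0.71 ± 0.24), whose call ended in 4 of 21 alternatives, among them leaving out day 0 replicate 1 or 3 or day 3 replicate 3. Tfrc, the transferrin receptor, fell (-1.26 ± 0.20).

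Hypoxia targets and glycolysis genes rose in 21 and fell in 5 of 32 (33 listed), with a median of 1.202. The glucose transporters differed in direction: Slc2a1 had 16.1, 14.2 and 17.7 at day 0 and 81.2, 138 and 122 at day 3 (2.72 ± 0.21) and Slc2a3 16.4, 14.2 and 24.3 at day 0 and 9.101, 9.44 and 9.53 at day 3 (-0.86 ± 0.19). Slc16a3, which exports lactate, had 4.75, 6.19 and 8.15 at day 0 and 28.7, 50.1 and 50.4 at day 3 (2.56 ± 0.30). The other members that fell were Pfkfb4 (-0.66), Bnip3l (-0.66), Egln1 (-0.55) and Epas1, the factor HIF-2 alpha (-0.82 ± 0.32), whose groups overlapped and whose call ended in 11 of 21 alternatives, among them leaving out replicate 2 or 3 of either group. Without the second day 0 library 3 members fell. The hypoxia response core ACGTG lay in the stretch before the start of 19 of 27 of these genes (70.4%). It lay in that of 2286 of 9073 tested genes (25.2%) and of 16.6% of all start sites. Genes with several start sites have more chances to hold a short motif. Because the list was drawn up from hypoxia targets and glycolysis genes, its share describes the list and not the change at day 3. Of genes that rose at least 8-fold 27 of 105 held the core (25.7%), near the share of tested genes. Of those that fell at least 8-fold 11 of 86 did (12.8%).

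Antioxidant and metallothionein genes rose in 13 and fell in 3 of 28 (29 listed). Slc7a11, the cystine importer for glutathione, had 5.02, 5.35 and 6.88 at day 0 and 36.8, 46.8 and 37.99 at day 3 (2.62 ± 0.21), Prdx6, a peroxidase of lipids, 14.3, 18.8 and 18.1 at day 0 and 79.8, 124 and 127 at day 3 (2.61 ± 0.23), and Gsr, glutathione reductase, 18.5, 27.9 and 28.1 at day 0 and 74.7, 132 and 112 at day 3 (2.04 ± 0.24). The 3 that fell were the metallothioneins Mt1 (-1.47 ± 0.17) and Mt2 (-1.53 ± 0.29), which bind zinc and copper, and catalase, Cat, with 153, 117 and 114 at day 0 and 62.7, 50.3 and 40.9 at day 3 (-1.31 ± 0.18).

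Most proliferation genes were lower at day 3. Mitosis genes fell in 32 of 38 and none rose, with a median of -1.51. Mki67, the proliferation marker, had 103, 158 and 144 at day 0 and 34.97, 37.2 and 41.2 at day 3 (-1.79 ± 0.26). Nusap1, a spindle protein, had 11.4, 13.7 and 17.4 at day 0 and 1.72, 1.65 and 2.25 at day 3 (-2.38 ± 0.21), and the cyclin Ccnb2 6.47, 6.61 and 7.61 at day 0 and 1.44, 1.18 and 1.72 at day 3 (-1.69 ± 0.21). The 6 that did not pass were Aurka (-0.61), Bub1b (-0.52), Cenpa (0.06), Cenpe (-0.68), Spc25 (-0.79) and Ndc80 (-0.77). DNA replication genes fell in 21 and rose in 2 of 36, with a median of -0.73. Pole, a replicative polymerase, had 6.995, 8.597 and 14.3 at day 0 and 1.44, 1.77 and 0.265 at day 3 (-2.37 ± 0.33), and Mcm7, of the replicative helicase, 19.7, 14.8 and 19.7 at day 0 and 4.31, 3.66 and 4.63 at day 3 (-1.87 ± 0.20). Not every replication gene moved: Pcna, the polymerase clamp, had 138, 137 and 147 at day 0 and 135, 120.1 and 144 at day 3 (-0.08 ± 0.13), and Mcm4 17.4, 21.5 and 24.3 at day 0 and 18.5, 17.6 and 22.8 at day 3 (-0.09 ± 0.19), and neither passed. Cdt1, which loads the helicase, was among those that rose (0.83 ± 0.22), and 1 member rose without day 3 replicate 3 or with the total taken without mitochondrial genes.

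Genes of mitosis often carry CCAAT boxes before their start, bound by the factor NF-Y. CCAAT on either strand lay in the 250 bases before the start of 24 of 33 mitosis genes (72.7%) and 17 of 29 replication genes (58.6%), against 3663 of 9073 tested genes (40.4%) and 33.9% of all start sites. The lists were drawn up by function, so their shares describe the lists and not the change at day 3. Tested genes with CCAAT rose in 21.3% and fell in 24.1%, and those without it rose in 23.8% and fell in 21.1%. The stretches below show it in 3 genes that fell and in Cenpa, which did not pass, with matches (CCAAT or, on the other strand, ATTGG) in capitals.
Top2a (chr11:99024233-99024426, minus strand): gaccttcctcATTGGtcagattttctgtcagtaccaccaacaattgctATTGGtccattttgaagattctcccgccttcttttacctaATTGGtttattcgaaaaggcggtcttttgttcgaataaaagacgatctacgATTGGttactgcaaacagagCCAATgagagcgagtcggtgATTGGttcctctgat
Ccnb2 (chr9:70421561-70421651, minus strand): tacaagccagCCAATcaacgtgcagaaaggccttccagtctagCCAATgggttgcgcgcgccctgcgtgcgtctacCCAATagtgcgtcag
Kif11 (chr19:37376327-37376351, plus strand): ccgctctgctATTGGtccggtcagt
Cenpa (chr5:30666767-30666814, plus strand): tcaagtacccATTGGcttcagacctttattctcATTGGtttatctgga

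The arms of antigen presentation moved apart. MHC class I and immunoproteasome genes rose in 16 of 21 and none fell, with a median of 0.72. Tap1, the peptide transporter, had 46.7, 39 and 40.2 at day 0 and 96.1, 147 and 147 at day 3 (1.58 ± 0.20), Psmb9, an immunoproteasome subunit, 103, 73.8 and 64.8 at day 0 and 137, 234 and 241 at day 3 (1.32 ± 0.22), and the class I gene H2-T22, which has close paralogs, 27.5, 25.1 and 22.3 at day 0 and 82.7, 109 and 109 at day 3 (1.96 ± 0.17). MHC class II presentation genes fell in 9 and rose in 2 of 15 (16 listed). H2-Aa had 4722, 5302 and 5358 at day 0 and 593, 956 and 696 at day 3 (-2.80 ± 0.23), Cd74, the invariant chain, 5826, 5649.7 and 6602 at day 0 and 936, 1878 and 1304 at day 3 (-2.19 ± 0.26), and H2-Ob, of the peptide editor, 22.3, 16.6 and 21.4 at day 0 and 1.92, 3.78 and 2.52 at day 3 (-2.52 ± 0.28). The class II members that rose were the lysosomal enzymes Ifi30 (1.61 ± 0.16) and Ctss (1.72 ± 0.18).

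Granule and S100 genes rose in 9 and fell in 4 of 16 tested (22 listed). Mmp8, neutrophil collagenase, had 0.132, 2.202 and 4.35 at day 0 and 66.7, 60.6 and 64.1 at day 3 (4.59 ± 0.42), or 3.97 without the first day 0 library, and Slpi, a protease inhibitor, 0.528, 1.78 and 1.81 at day 0 and 22.99, 51.7 and 51.6 at day 3 (4.15 ± 0.40). S100a8, with 1.58, 7.02 and 17.6 at day 0 and 31.8, 6.38 and 13.9 at day 3, overlapped between the groups and did not pass (1.08 ± 0.65), and neither did S100a9 (1.501 ± 0.73). Other families lay near the share of all tested genes or below it. Mitochondrial ribosomal proteins rose in 11 and fell in 6 of 76, with a median of 0.00, and 6 or 7 rose without day 0 replicate 2 or day 3 replicate 2 or 3. With the total taken without mitochondrial genes, 3 rose and 12 fell. Transfer RNA synthetases and integrated stress response genes rose in 5 and fell in 2 of 21 (25 listed). Without replicate 2 or 3 of either group, 3 of them rose, and with the total taken without mitochondrial genes 3 rose and 5 fell. Their median, 0.15, was -0.03 after quantile normalisation and -0.14 with the total taken without mitochondrial genes.

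Markers of other cells were read beside these results. Sums are of the signal of every listed gene in the table, tested or not. Cardiomyocyte markers fell in 12 of 12 (15 listed), with summed signals of 89.4, 261 and 416 at day 0 and 12.04 to 18.8 at day 3, and Myl3 was at 0 reads at day 3. Of 12 markers of T and NK cells 6 were tested, and these 6 were lower (3 at a mean signal of at least 5). The 11 in the table summed to 42.4, 198 and 142 at day 0 and 4.84 to 13.2 at day 3. Gzma, a granule protease, had 14.5, 124 and 86.7 at day 0 and 1.15, 0.708 and 2.52 at day 3 (-4.56 ± 0.59). Lower were also mast cell markers in 5 of 5 (6 listed; 40.9, 23.6 and 22.6 against 0.575 to 0.794, with Cma1, Cpa3, Mcpt4 and Tpsb2 at 0 at day 3) and erythroid markers in 3 of 4 (6 listed; 15.7, 122 and 139 against 3.31 to 23.8). Mural cell markers fell in 4 of 8 (46.3, 146 and 119 against 22.3 to 30.8), or 7 without the first day 0 library. Markers of low signal could reach the limit on signal through the day 0 libraries. Counts in which all tested markers fell are thus partly set by that limit. The part of these cells in the falls above was not tested.

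Fibroblast markers summed to 89.2, 214 and 221 at day 0 and 365 to 458 at day 3, and 5 of 11 rose, Col1a1 (3.90 ± 0.55), Col1a2, Col3a1 and Postn among them. Dcn, decorin, was the one that fell, with 23.2, 60.2 and 62.8 at day 0 and 20.7, 18.5 and 24.5 at day 3 (-1.04 ± 0.34), so the groups overlapped. Without the first day 0 library 3 fell, and without day 0 replicate 2 or 3 or day 3 replicate 2 none did. The fibroblast identity genes Pdgfra (0.06 ± 0.32) and Tcf21 (0.10 ± 0.43, at most 0.662 in any library of either group) did not pass. Neutrophil markers summed to 61.8, 86.1 and 120 at day 0 and 246 to 313 at day 3. Of 6 tested (10 listed) 3 rose and 1 fell, the latter Mmp9 (-2.11, or -2.41 without the first day 0 library). Csf3r, which monocytes also express, had 47.8, 48.6 and 54.7 at day 0 and 149, 164 and 185 at day 3 (1.70 ± 0.16). Without day 0 replicate 3, 5 of the neutrophil markers rose. Endothelial markers were 29.8, 244 and 194 at day 0 and 156 to 207 at day 3, with 1 higher and 1 lower of 10, and 6 lower without the first day 0 library. Kdr, a vascular receptor, was the one higher, with 0.924, 37.2 and 24.4 at day 0 and 66.1, 60.4 and 93.3 at day 3 (2.57 ± 0.73), or 1.23 without that library, and its call ended in DESeq2 (adjusted p = 0.0789) and with a robust prior (adjusted p = 0.0551). Dendritic cell sums were 50.02 to 85.1 and 75.3 to 113, B cell sums 14.4 to 24.7 and 9.80 to 23.8, and those of patrolling monocyte genes 184 to 212 and 302 to 570. Of the 7 patrolling monocyte genes 2 rose and 2 fell, with a median of 0.07 that was -0.56 without the first day 0 library. The rises were Nr4a1, given above among early response genes, and the integrin chain Itgal, with 30.4, 81.1 and 78.4 at day 0 and 76.3, 169 and 152 at day 3 (1.101 ± 0.33), whose groups overlapped. Itgal lost its call without day 0 replicate 1 or day 3 replicate 2 or 3. Its call also ended after quantile normalisation and with the total taken without mitochondrial genes. Spn, the antigen CD43, had 33, 39.9 and 47.99 at day 0 and 11.02, 13.6 and 13.1 at day 3 (-1.60 ± 0.24), and Cd300e also fell (-1.21 ± 0.36). Cd300e lost its call after quantile normalisation and without day 0 replicate 2 or 3 or day 3 replicate 1. The part of these cells in the rises above was not tested.

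Because the later groups of the study were sorted through the day 0 gate, their levels stand beside those above as a description of a few genes chosen after their levels were seen. Slfn4 had a mean signal of 23.1 at day 7 and 23.3 at day 30, against 3.71 at day 0 and 2547 at day 3. Lipg was 0.349 and 0.864, and Cfb 44.6 and 21.7. In 3 genes that fell at day 3 the level was nearer to day 0 at day 30 than at day 7: Alox5 was 28.01 and 70.8, Cd81 369.9 and 575, and Hpgd 157 and 349. Igf1 was at 383 and 459.6, above its day 0 mean of 309 at both times. Ctsd, the protease cathepsin D, was highest at day 7, at 4374, against 326 at day 0, 1217 at day 3 and 389 at day 30, and Cd5l, a secreted macrophage protein, had 0.181, 8.91, 61.7 and 1.33 in that order of days 0, 3, 7 and 30.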

How the data were processed

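The authors deposited 1 table of 14460 genes with, for each library, a signal (a normalised read count) and its log2. Per the submitters' processing notes cutadapt 1.3, RSEM 1.2.20, edgeR 3.14.0 and GRCm38 were used; their roles are not given in the sources used here. Every deposited signal value was within 0.02 of a whole number of reads (100% of values), and the 12 libraries held 5828904 to 13199576 reads. The edgeR quasi-likelihood test (4.0.16) and DESeq2 (1.42.0), run on these reads as alternatives, called 5610 and 5841 genes.

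Log2(signal + 1) was fitted with limma 3.58.1 in R 4.3.3 (variance trend, 4 group means, all 12 libraries, 8 residual degrees of freedom), two-sided, with Benjamini-Hochberg adjustment over 12879 genes. The 3 day 30 libraries, which enter this estimate of spread, were more alike than replicates of other groups (chi-square of reads per degree of freedom 2.16 to 2.88, against 5.82 to 82.8) and may not be independent. If they are not, standard errors and p-values would be too small. The second day 7 library also enters this estimate and differed from the other day 7 libraries (77.4 and 82.8, against 13.7 between those). An unlike library makes the estimate of spread larger. Without the day 30 libraries, but with this library, 4789 genes were called, and with the 6 compared libraries alone 5807. Same-numbered libraries deviated from their group means with a median r of 0.0049 in 18 pairs (-0.083 to 0.210), so no pairing was used. Other settings, among them other pseudocounts, filters and scalings and leaving out each library, are in the closing section.

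The comparison, gene lists and motifs were chosen with earlier results of these data known. The kappa B site GGGRNWYYCC, the PU.1 site GAGGAAGT and the E-box CACGTG were searched as well. They lay before 5.71%, 8.57% and 9.52% of genes that rose at least 8-fold, against 5.26%, 3.4% and 9.95% of tested genes. Shares of motifs by list are printed for some pairs only. Genes named were the 15 largest rises and falls (mean signal of at least 10, no overlap, no clone name), up to 4 called members of each list in each direction, Cx3cr1, Ly6c1, Ly6c2, Ccr2, Emr1, Itgam and Csf1r, the 10 largest differences in signal (mitochondrial and ribosomal RNA genes left out), the 5 most abundant genes with an interval within -0.5 to 0.5, and all members behind a count of 5 or fewer. A part of them is printed, and the results of 5 genes are not reported here. Other genes were chosen after their values were seen. Identifiers matched GENCODE M21 for 14232 genes (98.4%), and start site sequences came from RefSeq (GRCm38.p6) for 9073 tested genes.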

Additional observations from a re-analysis of the deposited data

How the results depend on the processing

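Over 21 alternatives the number of genes called ran from 4515 (mean signal of at least 5, 9328 genes tested) to 6886 (leaving out day 0 replicate 1 and day 7 replicate 2 together, chosen after seeing the data), against 5698, and no gene was called in opposite directions. Leaving out 1 library gave 4646 to 5492 calls, with 2376 to 2775 higher and 2270 to 2717 lower. The fit of the 6 libraries alone called 5807, and that without the 3 day 30 libraries, added after seeing how alike these are, 4789 (2442 higher, 2347 lower). With a replicate block, although the numbers were not found to pair libraries, 5725 genes were called (2852 higher, 2873 lower). Asking for a change of at least 2-fold left 3105 genes, 1465 higher and 1640 lower. With the library total taken without mitochondrial genes, and without Gm26924 and Lars2, 1873 were higher and 4180 lower. The median log2 fold change turned sign in at least 1 alternative in 12 of 49 lists. In 9 of these it lay between -0.0951 and 0.103, and the farthest values across 0 were -0.19 for CC chemokine ligands (quantile normalisation), -0.26 for mRNA decay and -0.27 for lipid transport genes (both without mitochondrial genes), 0.12 for eicosanoid genes (without day 0 replicate 2), 0.103 for iron and heme genes and -0.56 for patrolling monocyte genes (both without day 0 replicate 1), 0.0814 for mitochondrial ribosomal proteins (quantile normalisation), 0.0324 for myeloid factors (without day 3 replicate 1) and 0.2958 for B cell markers (without day 3 replicate 2). The others were Fc receptors (-0.198 after quantile normalisation, -0.1205 without mitochondrial genes), transfer RNA synthetases and stress response genes (-0.027 and -0.14) and endothelial markers (0.073 at a mean signal of at least 5, 0.23 without day 0 replicate 2 and 0.078 without day 0 replicate 3, with -1.23 as the lowest without 1 library, day 0 replicate 1); the cause was not tested. Of 304 called named genes, 27 lost the call in at least 1 alternative and none reversed. In 24 the value moved by over 1.5-fold without 1 library, in 21 of them without the first day 0 library. No mast cell marker was left at a mean signal of at least 5. Below a mean signal of 1, 14.6% of genes passed.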
